A study of Mus musculus with 9 samples.

Results

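The genes of the NADPH oxidase subunits were followed in heart RNA of mice with diabetic cardiomyopathy, with and without spermine. The members were chosen by symbol, as Cybb, Cyba, Ncf1, Ncf4, Rac1, Rac2 and Nox4, from a matrix of whole-number counts over 22851 genes. Of these 7, 6 were found in the matrix and Cyba, the membrane partner of both Cybb and Nox4, was not analysed here. All animals were labelled C57BL/6 mice, and the methods give male C57BL/6J mice of 6 to 8 weeks at the start. The control check group (CK) received citrate buffer only, and the diabetic cardiomyopathy group (DCM) a single injection of streptozotocin at 180 mg/kg followed by 12 weeks on a normal diet. The spermine group (SPM) received the same streptozotocin together with spermine at 1 mg/kg, given daily over the 2 weeks that preceded the streptozotocin and on alternate days over the 12 weeks that followed. Streptozotocin destroys the insulin-producing beta cells, and spermine is a natural polyamine. No group received spermine without streptozotocin, so SPM compared to CK carries both agents. Each group had 3 libraries, 9 in all.

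NADPH oxidases are membrane enzymes that move electrons from NADPH to oxygen and release superoxide or hydrogen peroxide. In the phagocyte enzyme the catalytic subunit (encoded by Cybb) sits in the membrane with the subunit encoded by Cyba, and stays silent until cytosolic subunits, among them those of Ncf1 and Ncf4, and a Rac GTPase join it. Nox4 makes a related catalytic subunit that needs Cyba but not the cytosolic subunits, is found outside phagocytes and releases mainly hydrogen peroxide.

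The tissue was checked before the members were read. Total counts were 29901300 to 39718680 per library, and the share of mitochondrial genes was 13.7% to 16.2% for CK, 15.5% to 18.9% for DCM and 21.01% to 21.1% for SPM. The tissue label gives heart, while the deposited extraction protocol speaks of retinas. The 6 cardiomyocyte markers summed to 42266 to 47591 CPM (counts scaled to the library total) in the CK libraries, 40781 to 48300 in those of DCM and 35131 to 40802 in those of SPM, below every CK library, and 8 retina markers to no more than 1.94. The methods give both 3 mice per group and pools of 6 hearts, so the p-values measure the spread between these libraries, which may be smaller than that between single mice. The library SPM replicate 2 stood apart. Of 2656 genes at 0 in SPM replicates 1 and 3, 30 had a count in replicate 2, whereas for the other 8 libraries the same number was 485 to 1162. Its normalised level lay between those of the other SPM libraries for 67.8% of 13408 genes, and for 14.99% to 40.5% in the other libraries. It lay between them for all 6 members as well. How this library was made was not tested, and the SPM results of the members are given with and without it, those of the other genes as counts of calls with and without it. SPM replicate 2 also lay in the middle for the sums of all cell type markers but retina, so those ranges in SPM are the same without it. For retina the highest SPM sum was 1.413 CPM with it and 1.406 without it.

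The stretch of 250 bases just before the RefSeq start is shown for the catalytic genes, whose levels the comparison turns on, and for Ncf1, the other analysed member with an entry (RefSeq, mouse build GRCm38.p6, gene strand, 5′ to 3′). Capitals mark the short motifs that are spelled out after the sequences.

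Cybb: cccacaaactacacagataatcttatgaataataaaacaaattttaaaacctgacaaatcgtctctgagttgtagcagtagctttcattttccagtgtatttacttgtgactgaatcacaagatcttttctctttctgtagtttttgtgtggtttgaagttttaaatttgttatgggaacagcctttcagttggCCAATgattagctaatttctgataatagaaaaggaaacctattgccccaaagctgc

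Ncf1: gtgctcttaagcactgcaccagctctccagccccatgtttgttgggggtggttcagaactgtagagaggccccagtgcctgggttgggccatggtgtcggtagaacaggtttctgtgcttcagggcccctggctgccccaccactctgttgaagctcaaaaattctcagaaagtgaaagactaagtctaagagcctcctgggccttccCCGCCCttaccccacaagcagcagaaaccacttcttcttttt

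Nox4: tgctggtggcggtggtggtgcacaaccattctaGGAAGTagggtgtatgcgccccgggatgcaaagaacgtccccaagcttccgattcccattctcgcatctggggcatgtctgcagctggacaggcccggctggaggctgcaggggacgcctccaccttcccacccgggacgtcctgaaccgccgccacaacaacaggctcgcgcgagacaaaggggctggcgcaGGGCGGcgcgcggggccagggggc

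The Cybb stretch lies at chrX:9469325-9469574 on the minus strand, the Ncf1 stretch at chr5:134229626-134229875 on the minus strand and the Nox4 stretch at chr7:87246399-87246648 on the plus strand. None of them overlaps an exon of the GENCODE M21 annotation, and those of Cybb and Nox4 lie inside the annotated gene, in an intron of a longer transcript. Bases G and C made up 34.0% of the Cybb stretch, less than in all but 3.87% of 32851 such windows, and 67.2% of the Nox4 stretch, more than in 86.5% of them. The Ncf1 stretch held 54.4%, near the median of 52.4%. Motifs were searched on both strands, and none of those found overlapped another. CCAAT, the CCAAT box, stood 56 to 52 bases before the Cybb start, and 33.8% of all windows held it. GGGCGG, the letters of a GC box, stood 24 to 19 bases before the Nox4 start and, on the other strand, 42 to 37 bases before the Ncf1 start, and was held by 32.7% of windows. GGAAGT, an ETS core, stood 217 to 212 bases before the Nox4 start and in 19.7% of windows. GAGGAA, an ETS core that PU.1 reads, and the TATA box letters TATAAA, in 23.3% and 12.4% of windows, were not in these 3 stretches. Only these exact letters were searched, so a stretch without a mark may still hold an ETS site in another spelling. The letters GGAA within AAAAGGAAAC near the end of the Cybb stretch, for example, are not marked. No entry was found for Ncf4, Rac1 and Rac2.

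Levels were compared between genes as FPKM (fragments scaled to gene length and library total), as the authors deposited them. Rac1 was the most abundant member in every library, at 40.9 to 46.2 FPKM. Mean FPKM in CK was 5.73 ± 0.706 for Cybb, 5.16 ± 1.18 for Rac2, 2.38 ± 0.647 for Ncf4, 1.33 ± 0.440 for Ncf1 and 0.462 ± 0.217 for Nox4 (SD, n = 3). The means stood in this order in DCM and SPM too. Libraries of Cybb and Rac2 overlapped in all 3 groups, so these neighbours were not separated. Ncf4 and Ncf1 overlapped in DCM and SPM, and Ncf1 and Nox4 in SPM, where Nox4 reached 0.930 ± 0.157. All other neighbours were apart in every library.

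Members were then compared between groups on the counts, with edgeR's quasi-likelihood test over the whole table. A gene was called when its p, adjusted by Benjamini-Hochberg over all genes tested, was under 0.05 and its fold change at least 1.5. Levels per group are given as CPM after TMM normalization. The comparisons share libraries (DCM and CK, SPM and DCM, SPM and CK), so they are not independent of each other. All 6 analysed members passed the low-count filter in each comparison. In DCM compared to CK, 1 of 6 members was called, against 4.34% of 14402 genes tested, and the libraries did not overlap for 2 of 6, against 29.3% of genes. In SPM compared to DCM, 2 of 6 were called, against 3.59% of 14493 genes, and 2 of 6 did not overlap, against 39.5%. In SPM compared to CK, 1 of 6 was called, against 9.21% of 14574 genes, and 2 of 6 did not overlap, against 46.1%. The median log2 fold change of the 6 members was -0.43, 0.63 and 0.16 in these comparisons, beside medians within 0.01 of 0 over all genes tested.

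**Figure D1:**
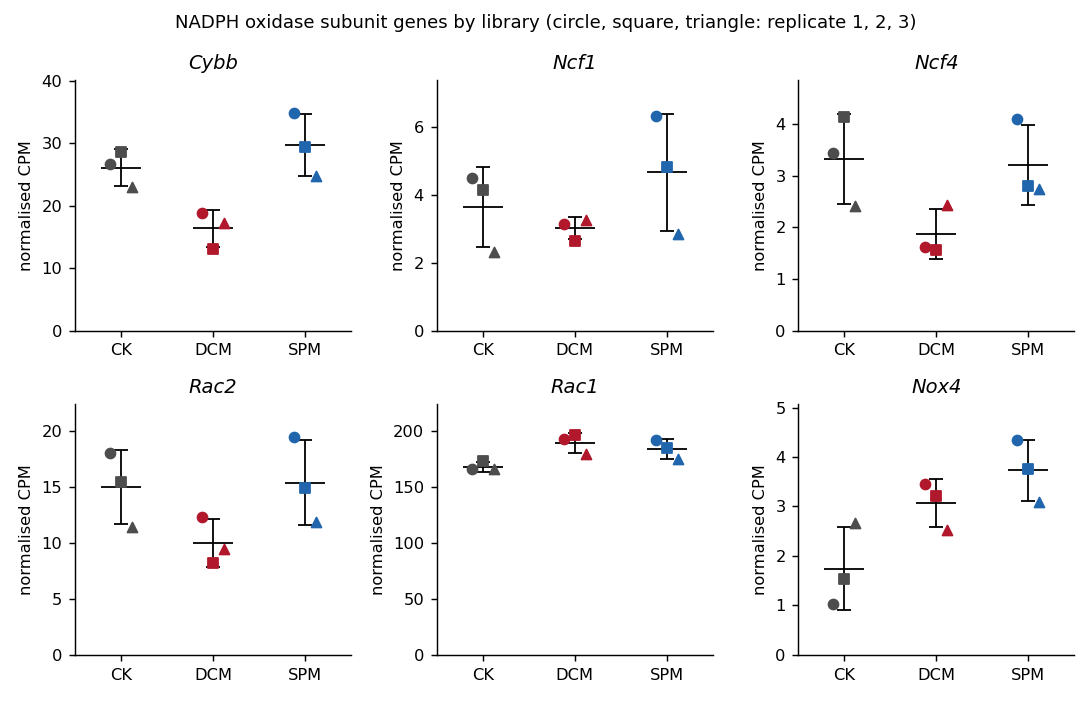
Normalised CPM of the 6 analysed members in every library (y axis, linear from 0, a separate scale for each gene), with groups CK, DCM and SPM on the x axis. Symbols are libraries, the horizontal line is the group mean and the bars are 1 SD (n = 3). For Cybb all 3 DCM libraries, at 13.02 to 18.8, lie below those of CK and SPM, while the lowest Nox4 library is in CK, at 1.02.

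Cybb, the catalytic subunit of the phagocyte oxidase, fell in DCM compared to CK and rose in SPM compared to DCM. The gene (ENSMUSG00000015340) spans chrX:9435252-9487771 on the minus strand (GRCm38, GENCODE M21). Its counts were 837, 1025 and 705 in CK replicates 1 to 3, 747, 384 and 585 in DCM, and 1137, 915 and 762 in SPM. These gave normalised levels of 26.7, 28.6 and 22.9 CPM in CK, 18.8, 13.02 and 17.2 in DCM, and 34.7, 29.4 and 24.8 in SPM. Every DCM library was below every CK and SPM library, and CK and SPM overlapped. The group means were 26.1 ± 2.91 CPM in CK, 16.3 ± 3.0 in DCM and 29.6 ± 4.98 in SPM (SD, n = 3). In DCM compared to CK the log2 fold change was -0.67 (SE 0.13, 95% interval -0.96 to -0.38, edgeR adjusted p = 0.00706), a level 0.628 times that of CK. Without DCM replicate 2, the lowest Cybb library, the log2 fold change was -0.54 (adjusted p = 0.0254), which is under 1.5-fold and not a call. Spermine against DCM alone gave 0.86 (SE 0.15, interval 0.54 to 1.19, adjusted p = 0.0111), or 1.82-fold. This call held without SPM replicate 2, at 0.87 (adjusted p = 0.0451), and was lost without DCM replicate 2, at 0.73 (adjusted p = 0.0558). SPM compared to CK gave 0.19 (interval -0.11 to 0.48, adjusted p = 0.316), and 0.19 (adjusted p = 0.445) without SPM replicate 2.

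Of the cytosolic subunits, Ncf4, which encodes p40phox, had low levels in DCM but did not pass the test. The gene (ENSMUSG00000071715) spans chr15:78244801-78262580 on the plus strand. Its counts were 108, 148 and 74 in CK, 64, 46 and 83 in DCM, and 134, 87 and 84 in SPM. In CPM this was 3.44, 4.13 and 2.40 in CK, 1.61, 1.56 and 2.44 in DCM, and 4.09, 2.79 and 2.73 in SPM. DCM replicate 3 stood just above the lowest CK library, and all DCM libraries were below those of SPM. DCM compared to CK gave a log2 fold change of -0.83 (SE 0.28, interval -1.45 to -0.22, adjusted p = 0.0846). SPM compared to DCM gave 0.79 (SE 0.26, interval 0.21 to 1.36, adjusted p = 0.0626), and 0.88 (adjusted p = 0.143) without SPM replicate 2. SPM compared to CK gave -0.05 (adjusted p = 0.896), and 0.04 (adjusted p = 0.947) without that library.

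Ncf1 encodes p47phox, the organizer that carries the cytosolic complex to the membrane. The gene (ENSMUSG00000015950) spans chr5:134220053-134229625 on the minus strand and shares 11.1% of its exonic bases with Gtf2ird2 on the other strand. Whether reads were counted by strand is not given in the sources used here, so reads of the shared part cannot be told apart. Its levels were 4.49, 4.16 and 2.31 CPM in CK, 3.15, 2.64 and 3.26 in DCM, and 6.32, 4.82 and 2.86 in SPM, from 71 to 207 counts. The groups overlapped in every comparison, and CK and SPM varied more than DCM (SD 1.18 and 1.74 CPM against 0.328). The log2 fold change was -0.28 in DCM compared to CK (interval -0.84 to 0.29, adjusted p = 0.563). It was 0.64 in SPM compared to DCM (interval 0.05 to 1.22, adjusted p = 0.116), and 0.62 (adjusted p = 0.267) without SPM replicate 2. SPM compared to CK gave 0.35 (adjusted p = 0.448), and 0.33 (adjusted p = 0.607) without that library.

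Rac2, the Rac GTPase of blood cells, followed Cybb across the libraries. The gene (ENSMUSG00000033220) spans chr15:78559167-78572783 on the minus strand. Its counts were 565, 555 and 353 in CK, 490, 241 and 322 in DCM, and 636, 463 and 366 in SPM, and its levels 18.0, 15.5 and 11.5 CPM in CK, 12.4, 8.17 and 9.45 in DCM, and 19.4, 14.9 and 11.9 in SPM. The groups overlapped, since DCM replicate 1 stood above the lowest library of CK and of SPM. The log2 fold change in DCM compared to CK was -0.58 (SE 0.18, interval -0.97 to -0.19, adjusted p = 0.06), just under 1.5-fold. Rac2 rose in SPM compared to DCM by 0.63 (SE 0.19, interval 0.21 to 1.05, adjusted p = 0.0463), or 1.54-fold. The call was lost without SPM replicate 2, at 0.66 (adjusted p = 0.109), and held in 8 of 16 alternative fits. SPM compared to CK gave 0.04 (interval -0.42 to 0.50, adjusted p = 0.9), and 0.07 (adjusted p = 0.876) without that library.

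Rac1, the GTPase made in most cell types, differed little. The gene (ENSMUSG00000001847) spans chr5:143503634-143528036 on the minus strand and shares 51.4% of its exonic bases with Daglb on the other strand, so the same limit on strand holds. Its levels were 165.3, 172.8 and 165.3 CPM in CK, 192.4, 195.7 and 178.8 in DCM, and 191.9, 184.2 and 174.3 in SPM. All DCM and all SPM libraries were above those of CK. The differences were small, with a log2 fold change of 0.17 in DCM compared to CK (interval 0.02 to 0.32, adjusted p = 0.149) and 0.13 in SPM compared to CK (interval -0.01 to 0.26, adjusted p = 0.135). For SPM against DCM it was -0.04 (interval -0.19 to 0.12, adjusted p = 0.753), so a change of 1.5-fold lay outside all 3 intervals. Without SPM replicate 2 the values were 0.13 (adjusted p = 0.328) against CK and -0.04 (adjusted p = 0.869) against DCM.

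Nox4, the catalytic subunit that works without the cytosolic subunits, had its lowest mean in CK and its highest in SPM. The gene (ENSMUSG00000030562) spans chr7:87246096-87398710 on the plus strand. Its counts were low, at 32, 55 and 82 in CK, 137, 95 and 86 in DCM, and 142, 117 and 95 in SPM. In CPM this was 1.02, 1.54 and 2.66 in CK, 3.46, 3.22 and 2.52 in DCM, and 4.34, 3.76 and 3.09 in SPM. CK replicate 3 stood above the lowest DCM library, and all SPM libraries were above all CK libraries. The means were 1.74 ± 0.840, 3.07 ± 0.485 and 3.73 ± 0.624 CPM in CK, DCM and SPM (SD, n = 3). Nox4 rose in SPM compared to CK by 1.10 on the log2 scale (SE 0.33, interval 0.35 to 1.86, adjusted p = 0.0393), or 2.15-fold. That call held in 9 of 16 alternative fits and was lost without SPM replicate 2, at 1.10 (adjusted p = 0.116). DCM compared to CK gave 0.82 (SE 0.33, interval 0.11 to 1.53, adjusted p = 0.143), and 1.25 (adjusted p = 0.0264) without CK replicate 3, where it became a call. SPM compared to DCM gave 0.29 (interval -0.16 to 0.74, adjusted p = 0.345), 0.29 (adjusted p = 0.566) without SPM replicate 2, and -0.12 (adjusted p = 0.784) with a term for GC content. The Nox4 transcript has the lowest GC content of the 6 members, 37.9%, followed by Cybb at 42.4%.

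**Figure D2:**
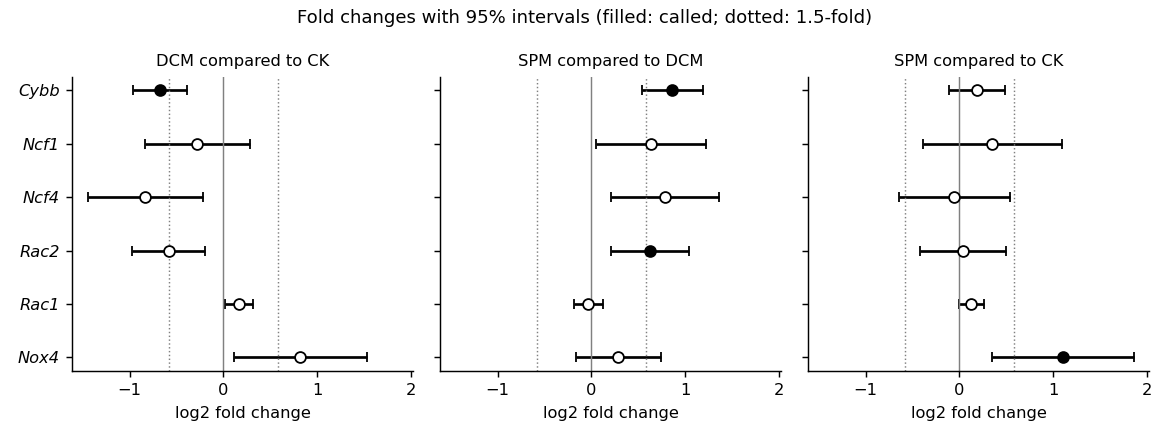
Log2 fold changes of the 6 members (x axis) with their 95% intervals (bars) in DCM compared to CK, SPM compared to DCM and SPM compared to CK, from edgeR. Filled points are calls and dotted lines mark 1.5-fold. Cybb is filled at -0.67 and 0.86, Rac2 at 0.63 and Nox4 at 1.10, and the 3 intervals of Rac1 lie close to 0.

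The phagocyte catalytic subunit was set against Nox4 within each library, as the ratio of their FPKM values, which does not depend on library size. The ratio was 21.6, 15.4 and 7.09 in CK, 4.50, 3.34 and 5.61 in DCM, and 6.61, 6.45 and 6.62 in SPM. Cybb was thus the higher of both genes in every library. The lowest CK ratio was above every SPM ratio, and the lowest SPM ratio above every DCM ratio. On the log2 scale the means were 3.73 ± 0.82, 2.13 ± 0.38 and 2.71 ± 0.02 in CK, DCM and SPM (SD, n = 3). DCM compared to CK differed by -1.60, a ratio 0.329 times that of CK. SPM compared to DCM differed by 0.58, or 1.5-fold, and SPM compared to CK by -1.02. Each of the 3 comparisons had p = 0.1 in a two-sided exact permutation test, the smallest that 3 against 3 libraries allow, so none could pass 0.05. Without SPM replicate 2 the last 2 differences were 0.59 and -1.01. As a description over the 9 libraries, which share their groups, Pearson's r on log2(CPM + 0.1) was 0.917 between Cybb and Rac2, 0.869 between Cybb and Ncf4 and 0.732 between Cybb and Ncf1. It was -0.09 between Cybb and Nox4 and 0.723 between Nox4 and Rac1.

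The genes most like Cybb over the 9 libraries by the same measure, among 12896 genes, were Lima1 (r = 0.980), Tlr2 (0.973), Cd53 (0.970), Lcp1 (0.969) and Alpk1 (0.968). Tlr2 is a receptor for bacterial lipoproteins, Cd53 a tetraspanin of leukocytes and Lcp1 an actin-bundling protein of leukocytes. Those most like Nox4 were Lox, which cross-links collagen and elastin (r = 0.972), Klf9 (0.954), Gm3365 (0.952), the copper transporter Atp7a (0.951) and Gm40652 (0.938).

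Markers of the cell types that the heart holds were read beside the members. The 15 macrophage markers analysed were all present in every library and had sums of 860.5 to 1123 CPM (CK), 744.1 to 869.9 (DCM) and 886.5 to 1457 (SPM). In DCM compared to CK, 12 of 15 had log2 fold changes below 0, of which Adgre1 (-0.93) and Fcgr1 (-1.17) were called, while Lyve1 (0.90) was called higher. Cd163 was higher there too, by 0.44 (edgeR adjusted p = 0.00226), under 1.5-fold and so not a call. All 15 were above 0 in SPM compared to DCM and 7 were called, Adgre1 (1.15), C1qa (0.73), C1qb (0.65), C1qc (0.63), Mrc1 (0.64), Lyz2 (0.62) and Lyve1 (0.68). DESeq2 called 3 of the 15, and without SPM replicate 2 edgeR called Lyve1 alone. Their median was 0.62, beside 0.01 over all genes tested, and 0.61 without that library. Cd163 (0.71, adjusted p = 0.00156) and Lyve1 (1.57, adjusted p = 0.00036) rose in SPM compared to CK, and were called without SPM replicate 2 too. Cybb made up 2.37% to 2.67% of the summed macrophage level (CK), 1.75% to 2.31% (DCM) and 2.38% to 2.80% (SPM), so the DCM share was lower in each library. The most abundant marker, Lyz2, at a mean of 390.8 CPM over the 9 libraries, weighs most in that sum. Set against single markers in DCM compared to CK, Cybb (-0.67) fell less than Adgre1 and Fcgr1, and every other marker fell less than Cybb or rose. In bulk RNA, fewer cells of a type and less RNA per cell cannot be told apart, and the part of the macrophage level in the Cybb result was not tested.

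Neutrophils also make the phagocyte oxidase. The 12 neutrophil markers had sums of 8.25 to 29.0 CPM (CK), 17.0 to 33.9 (DCM) and 36.9 to 71.1 (SPM), with 9 to 12 of them present in a library. Ltf alone gave 16.9 CPM in CK replicate 2 and at most 0.611 elsewhere, and without it the CK sums were 8.18 to 15.5 and the DCM sums 16.8 to 33.9, with no overlap. In SPM compared to CK Ltf had a log2 fold change of -3.74 (edgeR adjusted p = 0.106). S100a8 and S100a9 rose in DCM compared to CK by 1.2 and 1.74 on the log2 scale, while Cybb fell. They rose in SPM compared to DCM by 1.66 and 1.36, with Ngp (4.33), Csf3r (0.83), Retnlg (1.22) and Mmp8 (2.83). DESeq2 called 5 there, and without SPM replicate 2 edgeR called Ngp alone (4.26, adjusted p = 0.0492). Against CK, these 6 with Cxcr2 and Mmp9 were called higher in SPM, by 1.02 to 5.64, and 7 of these 8, all but Cxcr2, without SPM replicate 2. The neutrophil sums, 71.1, 54.2 and 36.9 CPM in SPM replicates 1 to 3, the macrophage sums, 1457, 1122 and 886.5 CPM, and all 6 members had the same order of these libraries. Since SPM replicate 2 lay between the others for 67.8% of genes, this shared order rests mostly on replicate 1 being above replicate 3. The share of all genes with that order was not counted. The part of the neutrophil and macrophage levels in the SPM results was not tested.

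The other markers were read in the same way. The 7 B cell markers had sums of 12.4 to 33.5 CPM (CK), 7.42 to 17.5 (DCM) and 7.94 to 13.6 (SPM), and Cd79b, Pax5 and Fcmr were called lower in SPM compared to CK (Cd79b alone without SPM replicate 2). In DCM compared to CK all 7 had log2 fold changes below 0 (median -1.35), with no call by edgeR and 2 by DESeq2. The 10 T and NK cell markers summed to 10.1 to 15.01, 3.22 to 7.19 and 6.57 to 8.37 CPM, and Lck was called lower in DCM and in SPM compared to CK (not without SPM replicate 2 in the latter). All 8 of them tested in DCM compared to CK were below 0 (median -1.23), and DESeq2 called 2. The fibroblast sum, of a cell type that makes Nox4, was 2019 to 2119 CPM (CK), 1363 to 1463 (DCM) and 1605 to 1688 (SPM), and its part in the Nox4 results was not tested. Col1a1, Col1a2, Col3a1 and Postn fell in DCM compared to CK, by 0.68 to 1.54 on the log2 scale. Dcn, the most abundant of the fibroblast markers, gave -0.038 (adjusted p = 0.819) and Pdgfra 0.045 (adjusted p = 0.764) there. The 3 collagen genes were also called lower in SPM compared to CK, at -0.92 to -1.50, and were called without SPM replicate 2 as well. In that comparison Dcn (0.31, edgeR adjusted p = 0.0203) and Pdgfra (0.24, 0.0135) were higher and Postn (-0.53, 0.0103) lower, each under 1.5-fold. Of the 7 fibroblast markers tested, 2 were above 0 and 5 below. Leaving out SPM replicate 2 gave adjusted p of 0.0742 for Dcn, 0.0943 for Pdgfra and 0.041 for Postn. Endothelial markers summed to 2702 to 3073, 2606 to 2799 and 2477 to 2574 CPM, with Cldn5 called lower in SPM compared to DCM (-1.15) and to CK (-1.29), and Tie1 in SPM compared to CK (-0.63), all of them without SPM replicate 2 as well. No cardiomyocyte marker was called in a comparison by edgeR or DESeq2, with 1, 1 and 4 of 6 at an unadjusted p under 0.05 in DCM compared to CK, SPM to DCM and SPM to CK. In SPM compared to CK Myh6 (-0.47, edgeR adjusted p = 0.0217) and Tnni3 (-0.20, 0.0243) were lower and Tnnt2 (0.21, 0.0234) higher, each under 1.5-fold. Without SPM replicate 2 their adjusted p was 0.0662, 0.134 and 0.106.

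**Figure D3:**
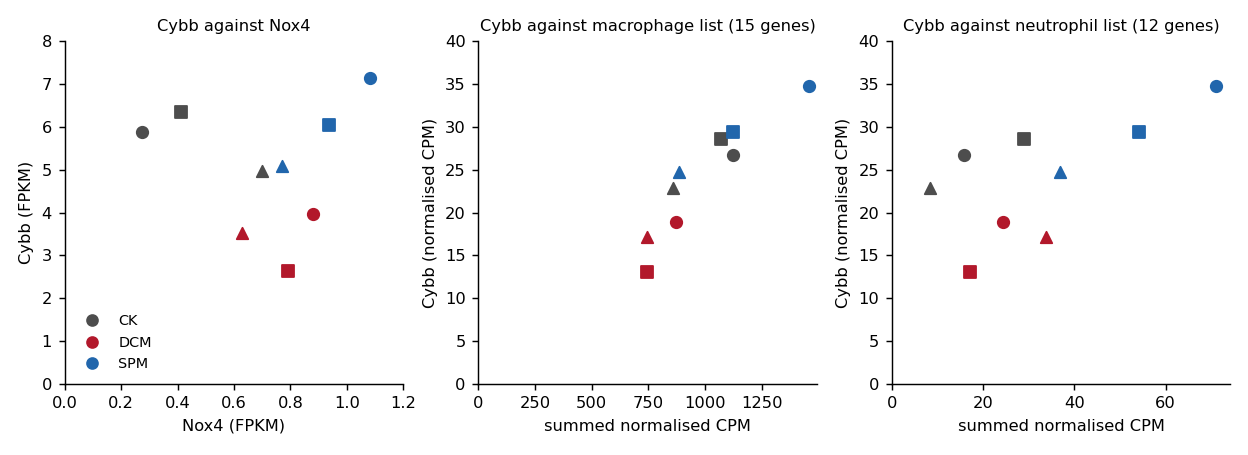
Cybb in each of the 9 libraries (y axes) against Nox4 (left, both in FPKM), the summed level of 15 macrophage markers (middle) and of 12 neutrophil markers (right, both in normalised CPM). Colours are groups, and circle, square and triangle are replicates 1, 2 and 3. The DCM libraries lie lowest in Cybb in all panels, at 13.02 to 18.8 CPM, and the SPM libraries highest in neutrophil markers, at 36.9 to 71.1.

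Further oxidase genes were read from fixed lists. None of the 7 tested genes for other oxidases and their partners was called in DCM compared to CK, nor any of 6 in SPM compared to DCM or to CK, by edgeR or DESeq2, while 0, 1 and 2 of them had an unadjusted edgeR p under 0.05. Cybc1, a chaperone of the Cybb protein, had a log2 fold change of -0.19 (adjusted p = 0.282) in DCM compared to CK, and of -0.27 (adjusted p = 0.0884) in SPM compared to DCM. Rac3, a further Rac GTPase, stood at 1.14 to 1.70 CPM (CK), 1.36 to 2.38 (DCM) and 1.74 to 1.89 (SPM), with log2 fold changes of 0.33 (adjusted p = 0.581) and -0.0087 (adjusted p = 0.986) in the same comparisons. Without SPM replicate 2 Cybc1 gave -0.29 (adjusted p = 0.217) and Rac3 -0.0012 (adjusted p = 0.999) in SPM compared to DCM. In SPM compared to CK Cybc1 was lower by 0.46 (edgeR adjusted p = 0.00716), under 1.5-fold, with every SPM library below every CK library. Without SPM replicate 2 that value was -0.49 (adjusted p = 0.0349). Rac3 gave 0.32 (adjusted p = 0.378) in SPM compared to CK, and 0.33 (adjusted p = 0.578) without that library.

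Among 16 tested regulators of oxidase assembly and of Rac, 2 fell in DCM compared to CK and 14 of 16 values were below 0 (median -0.34). The 2 were Prkcb (-0.75, adjusted p = 0.00585), a protein kinase C that phosphorylates p47phox, and Dock2 (-0.81, adjusted p = 0.00268), a Rac activator of blood cells. Both rose in SPM compared to DCM, by 0.68 (adjusted p = 0.0211) and 0.59 (adjusted p = 0.0196), as did Vav1, another Rac activator of blood cells (0.61, adjusted p = 0.0412). DESeq2 called 2 of the 16 in that comparison, and none was called by edgeR without SPM replicate 2, where Prkcb gave 0.70 (adjusted p = 0.0825), Dock2 0.57 (adjusted p = 0.093) and Vav1 0.55 (adjusted p = 0.167). The median of the 16 in SPM compared to DCM with all libraries was 0.11. In SPM compared to CK 13 of 16 were below 0 (median -0.21). None was called there by edgeR or DESeq2, with 7 at an unadjusted p under 0.05. Sh3pxd2a, Poldip2, Vav2, Sh3pxd2b, Arhgdia and Prex1 were lower at edgeR adjusted p of 0.00244 to 0.0457, each under 1.5-fold. Without SPM replicate 2, of these only Sh3pxd2a stayed under 0.05 (-0.58, adjusted p = 0.0151), and was no call. Such falls were not particular to SPM. DCM compared to CK gave -0.36 for Sh3pxd2a (edgeR adjusted p = 0.00585), -0.53 for Sh3pxd2b (0.0021), -0.36 for Prex1 (0.0408) and -0.48 for Elmo1 (0.0109), each under 1.5-fold. The most abundant regulators, Arhgdia and Poldip2, the latter a Nox4 partner, were not called in these comparisons. Poldip2 was also lower in SPM compared to DCM, by 0.21 (edgeR adjusted p = 0.0411), under 1.5-fold, with adjusted p = 0.227 without SPM replicate 2. Of 3 tested transcription factors of phagocyte oxidase genes, Spi1, which encodes PU.1, the master regulator of myeloid cells, fell by 0.72 in DCM (adjusted p = 0.023) and was higher by 0.66 in SPM compared to DCM (adjusted p = 0.023). Without SPM replicate 2 the latter was 0.68 (adjusted p = 0.0756) and no call. Irf1 and Elf1 were not called. The tested genes that use superoxide, Sod1, Sod2 and Sod3, were not called by edgeR or DESeq2 (1, 2 and 1 at an unadjusted p under 0.05 in the 3 comparisons), and Sod1 was higher in DCM by 0.38 (adjusted p = 0.00706), under 1.5-fold.

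**Figure D4:**
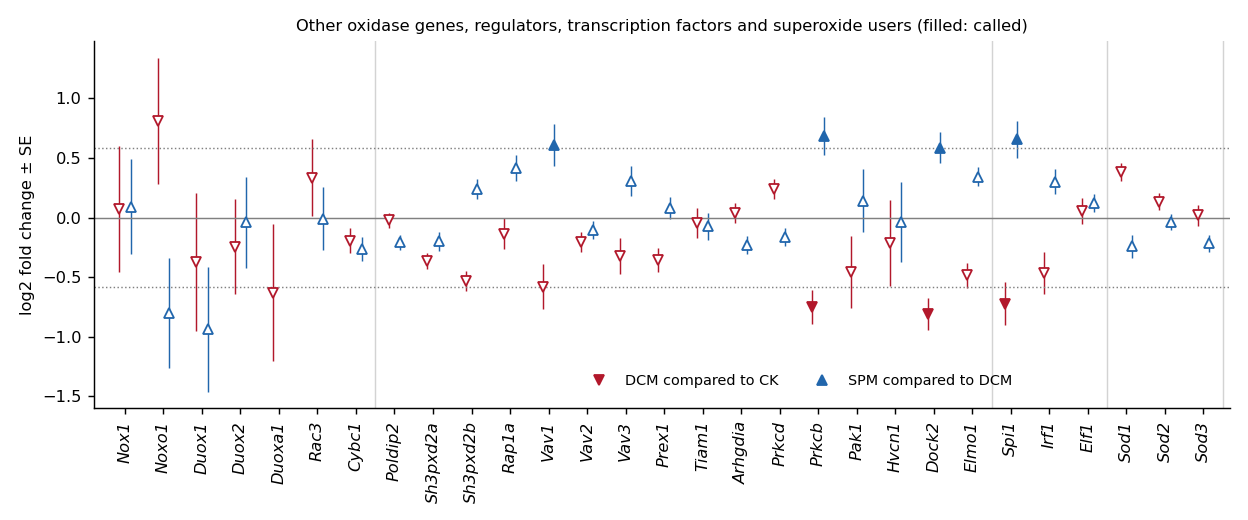
Log2 fold changes with 1 SE (y axis) of the tested genes for other oxidases, assembly and Rac regulators, transcription factors and superoxide users (x axis, lists separated by grey lines), for DCM compared to CK (red) and SPM compared to DCM (blue). Filled symbols are calls and dotted lines mark 1.5-fold. Prkcb, Dock2 and Spi1 are filled in both comparisons, at -0.72 to -0.81 in red and 0.59 to 0.68 in blue, and Vav1 in blue only, at 0.61.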

How the data were processed

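Heart RNA of CK, DCM and SPM mice was sequenced in 9 libraries, each assigned to its group by its label, which carry no batch. The authors enriched mRNA with oligo(dT) beads, depleted rRNA and filtered reads with fastp 0.18.0, and deposited whole-number counts per gene and library. The submitters' processing notes name Bowtie 0.12.2 and builds mm8 and mm9 without a role, and the sources used here give no counting tool or annotation. FPKM values deposited by the authors equal the count over 1 length per gene and the library total (largest relative deviation 8.6e-13). Symbols and positions are from GENCODE M21 (GRCm38), in which 22844 of 22851 identifiers matched, and may differ from the authors' build.

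Groups were compared in pairs (6 libraries) in R 4.3.3 by edgeR 4.0.16 (quasi-likelihood test), filtered with filterByExpr and normalised by TMM (factors 0.965 to 1.05). The study's methods used DESeq2, which is an alternative here. A call needed at least a 1.5-fold change and p under 0.05 after Benjamini-Hochberg adjustment. The SE is the log2 fold change over the square root of F. The steps were tested on simulated data. Precision is limited by 3 libraries per group and, for Nox4, by counts of 32 to 142. Likeness used log2(CPM + 0.1) over genes with at least 1 CPM in at least 3 libraries. Promoter stretches come from RefSeq. Python 3.11.15 with scipy 1.17.1, pandas 2.3.3, matplotlib 3.10.9 and numpy 2.4.6 gave the ratios and plots.

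The members and lists were chosen with earlier results of these data known. Named are all members, every called gene, the 2 most abundant of each list and the 5 genes most like Cybb and Nox4. The most abundant genes not shown above are Csf1r, Blk, Cd79a, Cd4, Fabp4, Cdh5, Myl2, Sag and Pde6a, which were not called. Of the listed genes, 1 is not reported here and 10, with Cyba, were not analysed here, and none of them enters the counts. Ltf, Pdgfra, Sod3, Sh3pxd2a, Sh3pxd2b, Vav2, Prex1, Elmo1, Tnnt2 and Tnni3 were named after their values were seen. The alternatives were fold limits of 1.3 and none, a replicate block, RLE normalization, a filter of 1 CPM in 3 libraries or no filter, 1 fit of all 9 libraries, a GC offset (lowess span 0.3), DESeq2 1.42.0, limma 3.58.1 on log2(FPKM + 0.1), and each library left out in turn. The lists without SPM replicate 2 and the neutrophil sum without Ltf were added after the data were examined.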

Additional observations from a re-analysis of the deposited data

How the results depend on the processing

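Of 288 alternative values of the 6 members, 255 kept direction and call, 17 lost a call, 7 gained one and 9 changed sign, all 9 without a call. In DCM compared to CK the number of members called was 1 and became 2 with no low-count filter, and 0 (without DCM replicate 2) to 4 (without CK replicate 3) with 1 library left out. For SPM compared to DCM it was 2 and became 1 with all 9 libraries in 1 fit, with the GC content offset and with limma on FPKM, and 0 (without DCM replicate 2) to 3 (without SPM replicate 3) with 1 library left out. In SPM compared to CK it was 1 and became 0 with the replicate block, the GC content offset and limma, and 0 to 1 with 1 library left out, Nox4 being called only without CK replicate 3 or SPM replicate 3. Cybb was called in 15 of 16 alternatives in both comparisons with DCM. Signs changed with the GC content offset for Nox4 in SPM compared to DCM (-0.12) and for Cybb (-0.031) and Ncf4 (0.076) in SPM compared to CK, and with limma for Rac2 in SPM compared to CK (-0.058). With 1 library left out, Ncf4 in SPM compared to CK ranged from -0.27 to 0.13 and Rac2 from -0.16 to 0.20. The cause was not tested. Correlations of residuals were -0.144 to 0.235 between libraries of 1 replicate number and -0.279 to 0.206 between others, which showed no clear pairing by number. With 3 libraries per group they cannot settle whether the numbers pair the libraries. With the replicate block 1, 2 and 0 members were called in the 3 comparisons, Nox4 in SPM compared to CK at 1.16 (edgeR adjusted p = 0.0525). The log2 ratio of Cybb to Nox4 ranged, with 1 library left out, from -2.06 to -1.25 in DCM compared to CK, 0.38 to 0.76 in SPM compared to DCM and -1.47 to -0.67 in SPM compared to CK. Among all genes tested, 625, 521 and 1342 were called in these comparisons. With 1 library left out the numbers were 427 to 704, 56 (without SPM replicate 2) to 791 and 771 (without SPM replicate 2) to 1589. They were 1497, 2410 and 3989 with no fold limit and 1100, 1299 and 2532 with a limit of 1.3, and in SPM compared to DCM 134 with the GC content offset. Limma on FPKM called 218 higher and 432 lower in DCM compared to CK, against 292 and 333, and 596 higher and 886 lower in SPM compared to CK, against 741 and 601.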
